A study of Mus musculus with 8 samples.

Results

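The classical complement pathway in the retina was described through 10 genes, chosen by symbol among the 55213 gene rows counted in each library. They encode the chains of C1q (C1qa, C1qb and C1qc), the C1 proteases (C1ra and C1s1), the components C4b, C2 and C3, and the receptors C3ar1 and C5ar1. The study fed germ-free male C57B1/6 mice one of a pair of diets, starting at 7 weeks of age, and took whole retinas for RNA sequencing 8 weeks later, at 15 weeks. The 4 GF-HFD libraries (numbers 13, 15, 16 and 19) came from mice on a high-fat diet with 23% saturated fat, and the 4 GF-ND libraries (numbers 9, 10, 11 and 12) from mice on a normal diet. All groups shared the germ-free state, so the comparison is of diets in mice that carried no microbes, and it holds no colonized mice. By the paper, each library is a whole retina from a different mouse, and p-values here measure the spread between these libraries. That spread holds differences between mice together with any between dissections and library preparations, and these cannot be told apart.

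Complement is a cascade of blood and tissue proteins that tags surfaces for removal. In its classical branch, C1q recognizes a target and activates the proteases C1r and C1s, which cut C4 and C2 so that their fragments form an enzyme that cuts C3. Pieces of C3 then coat the target, and the small fragments C3a and C5a act on receptors of myeloid and other cells. In the nervous system, including the retina, microglia are the main source of C1q, and C1q and C3 are known for marking synapses that microglia take up.

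The libraries held 41769598 to 44357518 counts in GF-HFD, against 39258006 to 44025087 counts in GF-ND retinas. Values are given as CPM, counts relative to the library size after TMM scaling. A log2 fold change sets GF-HFD over GF-ND and comes from edgeR's quasi-likelihood test over 26900 genes. Its standard error (SE) was derived from that test, as the absolute log2 fold change over the square root of the F statistic. Rod photoreceptor genes averaged 11.30 to 11.65 on the log2 CPM scale in GF-HFD, against 10.66 to 11.28 in GF-ND retinas, so markers of the labelled tissue were high in every library. Libraries differed in transcripts of tissues next to the retina. Lens genes summed to 193.5, 357.9, 551.7 and 10480 CPM in GF-HFD 13, 15, 16 and 19, against 343.5, 1426, 59750 and 154.1 CPM in GF-ND 9, 10, 11 and 12. Pigment epithelium and fibroblast lists were also high in GF-HFD 16, GF-HFD 19 and GF-ND 11, and results are given with and without these libraries where they differ. Counts between 1 and 12 were even 1.91 to 2.36 times as often as odd, and low counts were not taken as independent molecules.

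All 10 members passed the filter of 10 counts over the 8 libraries, and none was called at an adjusted p under 0.05. The same held for all genes, since the background of adjusted calls was 0.0% (0 of 26900 genes, with 766 higher and 1219 lower at an unadjusted p under 0.05 and 0 adjusted calls in limma-voom). Where an alternative did give adjusted calls, 0 of the members were among them. These were 0.171% of genes in DESeq2, 0.0372% with 1 surrogate variable, 0.052% with the mean of fibroblast markers as a covariate and 1.6% without GF-ND 11. Every member had a fitted level above GF-ND in GF-HFD retinas, 10 of 10, against a background of 46.3% of all genes, and their median log2 fold change was 0.61, against -0.03 over all genes tested. The members share libraries and move together in groups, so these 10 directions are not independent. The list of rod genes was as one-sided, with 12 of 12 fitted higher in GF-HFD (median log2 fold change 0.32, 4 with groups apart). Endothelial genes (9 of 11, median 0.23) and Mueller glia genes (8 of 10, median 0.08) were less so, with smaller medians than the members. C1qa, C2 and C3ar1 had an unadjusted edgeR p under 0.05, all 3 higher in GF-HFD, where 2.85% of all genes were, and 0 members were lower, where 4.53% of all genes were. This count was 0 without GF-HFD 19 (background 2.0%), 1 without GF-ND 12 (2.62%, C3ar1) and 5 without GF-ND 11 (12.1%, C1qa, C1qc, C1ra, C1s1 and C3ar1). It was also 0 without GF-HFD 16, GF-HFD 19 and GF-ND 11 together (7.28%), and 0 with a filter of 10 CPM in 4 libraries that only C4b passed (2.09%). Only C2 had all 4 GF-HFD libraries above all 4 GF-ND libraries, where 2.29% of genes did. In a bulk tissue, more cells of a type and more RNA per cell cannot be told apart.

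Per length, the chains of C1q and C4b were the most abundant members, and the receptors the least. Over the 8 libraries, the mean level in CPM per kilobase of exon was 4.47 for C1qa, 4.27 for C1qb, 2.59 for C4b and 1.94 for C1qc. For C1qc the length was 1931 bases over all annotated exons, while a transcript of it has 1203 bases. With that shorter length its level would be higher, so its rank below C4b depends on the length used. For C1qa and C1qb the exon and transcript lengths were the same (1040 and 1088 bases). C1ra followed with 0.506, C1s1 with 0.469, C3 with 0.461 and C2 with 0.326 CPM per kilobase, and C3ar1 and C5ar1 had 0.107 and 0.0466. In this order the ranges of C1qa and C1qb overlapped in either diet (5.37 ± 1.46 and 4.84 ± 1.65 CPM per kilobase in GF-HFD, 3.56 ± 0.657 and 3.70 ± 1.20 in GF-ND libraries, SD, n = 4 each). Those of C1ra, C1s1, C3 and C2 overlapped in GF-HFD retinas. Within libraries, C1qa was above C1qb in every GF-HFD library and in GF-ND 12, and below it in GF-ND 9, 10 and 11. C1ra was above C1s1 in every GF-HFD library. Differences between genes were not tested.

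**Figure D1:**
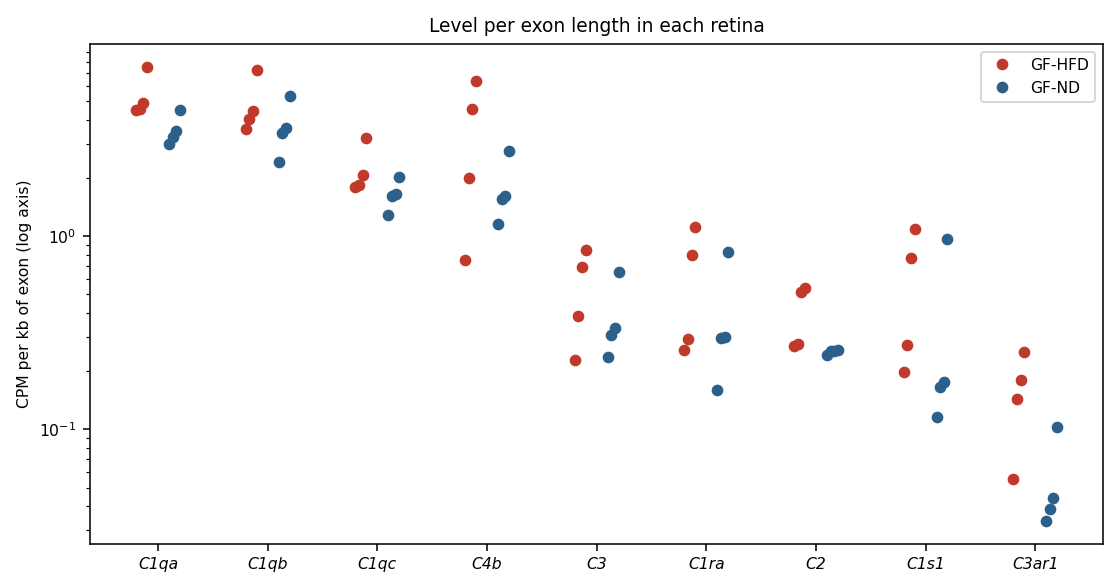
Level of 9 members in each library, in CPM per kilobase of exon on a log axis, with GF-HFD libraries left of GF-ND libraries and points of a group ordered by value. C5ar1 is left out because it is at 0 in GF-ND 9 and 12, and C1qa, C1qb, C4b and C1qc lie highest.

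The genes of C1q lie side by side on the minus strand of chromosome 4 (GRCm38), within 18675 bases. C1qb spans 136880129 to 136886187, C1qc 136889804 to 136893065 and C1qa 136895917 to 136898803. The protein is built from equal numbers of its 3 chains. C1qa was at 5.09, 4.75, 4.67 and 7.85 CPM in GF-HFD 13, 15, 16 and 19, against 4.68, 3.40, 3.62 and 3.11 CPM in GF-ND 9, 10, 11 and 12. GF-HFD 19 was the highest library, the other 3 GF-HFD values lay close together, and the groups overlapped only through GF-ND 9 at 4.68 and GF-HFD 16 at 4.67 CPM. The log2 fold change of C1qa was 0.59 (SE 0.22, adjusted p = 0.649 in edgeR), with means of 5.59 ± 1.52 CPM in GF-HFD, against 3.70 ± 0.683 CPM in GF-ND libraries (SD, n = 4 each), and the two-sided exact permutation test gave p = 0.0571, where 4 against 4 libraries allow no p under 0.0286. Without GF-HFD 19 it was 0.38.

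C1qb was at 3.92, 4.84, 4.40 and 7.90 CPM in the 4 GF-HFD retinas (13, 15, 16 and 19, an order kept for all members), against 5.79, 3.72, 3.96 and 2.63 CPM in the 4 GF-ND retinas (9, 10, 11 and 12). GF-ND 9 was above 3 of the 4 GF-HFD libraries, so the groups overlapped, and GF-HFD 19 was again highest. For C1qb the fold change on the log2 scale was 0.39 (SE 0.29, exact permutation p = 0.343), and 0.12 without GF-HFD 19. C1qc was at 3.56, 4.01, 3.48 and 6.24 CPM in GF-HFD, against 3.13, 3.20, 3.91 and 2.49 CPM in GF-ND retinas. Here GF-ND 11 lay within the GF-HFD range and the other GF-ND libraries below it. C1qc had a log2 fold change of 0.44 (SE 0.24, exact permutation p = 0.114), and 0.21 without GF-HFD 19. Without GF-HFD 16, GF-HFD 19 and GF-ND 11 the values were 0.41 for C1qa, 0.13 for C1qb and 0.38 for C1qc.

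The share of each chain in the per-length sum of C1q differed between libraries. It ran from 38.1 to 47.3% for C1qa, from 34.8 to 46.5% for C1qb and from 14.2 to 22.1% for C1qc. C1qa made up 43.5 ± 2.77% of the sum in GF-HFD, against 40.3 ± 2.95% in GF-ND retinas, C1qb 38.6 ± 2.54% and 40.8 ± 4.30%, and C1qc 18.0 ± 0.542% and 18.9 ± 3.35% (SD, n = 4 each). The low share of C1qc rests in part on its exon length of 1931 bases, and would be larger with its transcript of 1203 bases. Groups overlapped for all 3 shares. Across the 8 libraries, log2 CPM of the chains moved together, with a Pearson r of 0.885 for C1qa and C1qb, 0.846 for C1qa and C1qc and 0.821 for C1qb and C1qc. These points share libraries and diets and are given as a description. The transcripts of the chains share no window of 100 bases, so reads of one cannot be taken for another at full length.

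The stretch before the start of C1qb is shown because the chains moved together and because C1q is made by myeloid cells, where factors with an ETS domain such as PU.1 are known to act. It holds 150 bases ending before the RefSeq start, on the minus strand of GRCm38.p6 at chr4:136886201-136886350, and capitals mark matches to GGAA on either strand.
C1qb promoter: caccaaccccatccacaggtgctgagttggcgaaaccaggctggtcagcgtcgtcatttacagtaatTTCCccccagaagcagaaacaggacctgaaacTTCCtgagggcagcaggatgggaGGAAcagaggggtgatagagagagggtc
This window holds 3 matches. Such a short motif is common, and 93.4% of 32817 mouse promoters hold it within 250 bases before their start, so the matches are a description of the sequence.

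**Figure D2:**
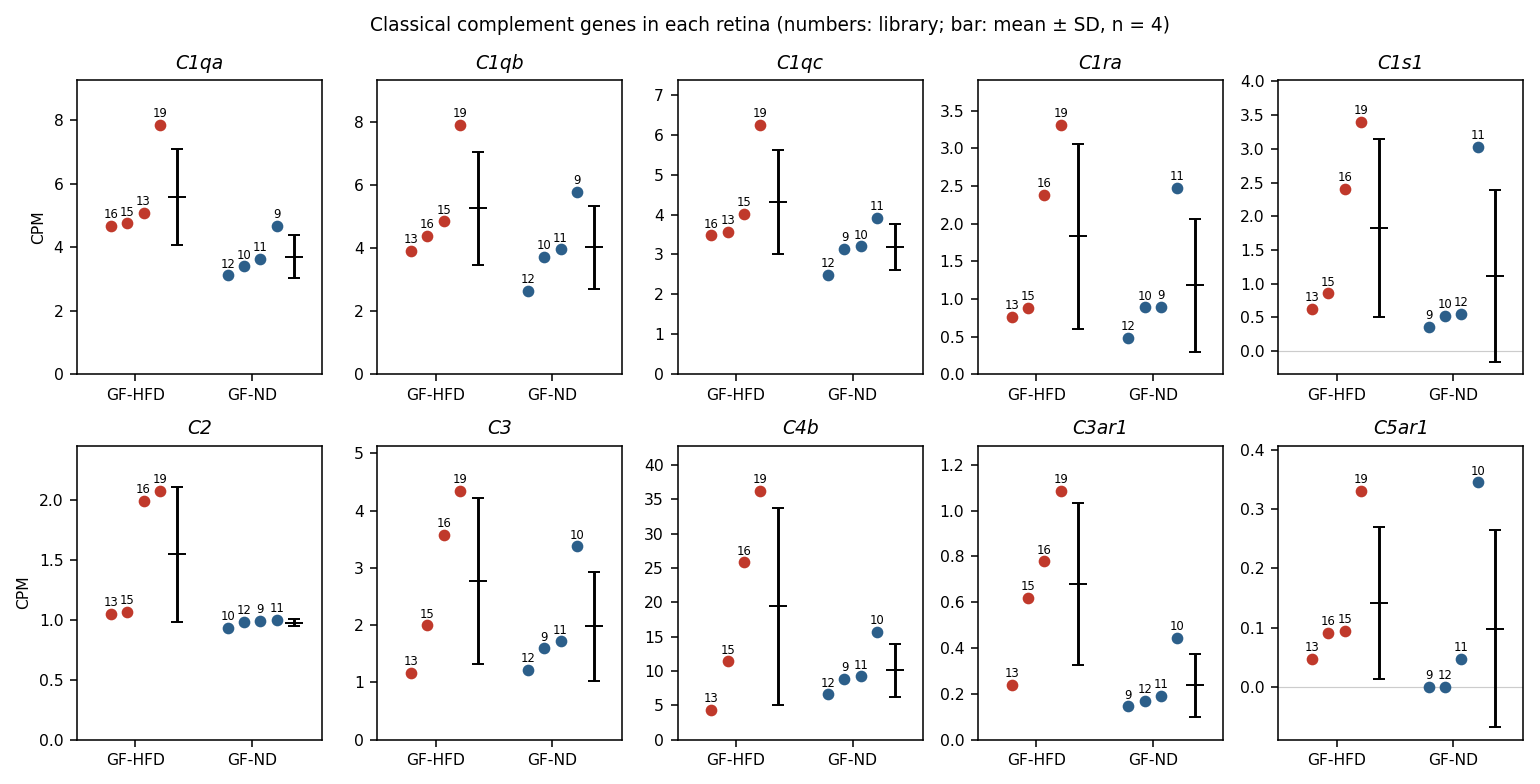
CPM of each member in each library, 1 panel per gene with its own axis, with GF-HFD libraries left of GF-ND libraries, points numbered by library and ordered by value, and the mean ± SD of each group beside them (in C1s1 and C5ar1 the SD of GF-ND reaches below 0). GF-HFD 19 is the highest library for all members except C5ar1, whose highest library is GF-ND 10, and only in C2 do the groups not overlap.

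The C1 proteases followed another pattern. C1ra, the protease that C1q sets off first, lies on the plus strand of chromosome 6 from 124512405 to 124523443, and C1s1, which it activates and which cuts C4 and C2, lies close by on the minus strand from 124530345 to 124542359. C1ra was at 0.764, 0.879, 2.38 and 3.31 CPM in GF-HFD, against 0.892, 0.886, 2.48 and 0.478 CPM in GF-ND retinas. C1s1 was at 0.621, 0.855, 2.404 and 3.40 CPM in GF-HFD, against 0.362, 0.517, 3.03 and 0.550 CPM in GF-ND retinas. Both genes were high in GF-HFD 16, GF-HFD 19 and GF-ND 11 and low in the other 5 libraries. For C1s1 the groups overlapped only through GF-ND 11, since GF-ND 9, 10 and 12 lay below every GF-HFD library, while for C1ra GF-ND 9 and 10 also lay within the GF-HFD range. Fitted log2 fold changes were 0.63 for C1ra (SE 0.59, exact permutation p = 0.486) and 0.71 for C1s1 (SE 0.74, exact permutation p = 0.257).

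Without GF-ND 11 these values were 1.29 for C1ra and 1.93 for C1s1 (adjusted p = 0.0879 in edgeR), without GF-HFD 19 they were 0.18 and 0.22, and without GF-HFD 16, GF-HFD 19 and GF-ND 11 together 0.14 and 0.64. The log2 CPM of the pair had a Pearson r of 0.923 over the 8 libraries. The transcripts of C1ra and of its copy C1rb are 98.1% identical where they align and share 34.5% of windows of 100 bases, and those of C1s1 and C1s2 96.2% and 7.9%, so reads of the copies could be split between them. C1rb had 14 counts and C1s2 39 counts over all libraries. The exons of C1s1 also overlap Gm16567 on the opposite strand, and since the strand setting of the counting is not given in the sources used here, its counts are uncertain.

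C4b, the complement component cut by C1s, lies on the minus strand of chromosome 17 from 34728380 to 34743882 and had the most counts of all members in every library but GF-HFD 13, where C1qa had more. It was at 4.27, 11.4, 25.8 and 36.3 CPM in GF-HFD, against 8.87, 15.6, 9.20 and 6.58 CPM in GF-ND retinas. GF-HFD 16 and 19 were above every GF-ND library, while GF-HFD 13 was below every GF-ND library, and GF-HFD retinas thus held both the lowest and the highest values. C4b had a log2 fold change of 0.95 (SE 0.54, adjusted p = 0.670 in edgeR), with means of 19.4 ± 14.4 CPM in GF-HFD, against 10.1 ± 3.89 CPM in GF-ND libraries (SD, n = 4 each) and an exact permutation p of 0.429. It was 1.28 without GF-HFD 13, 0.46 without GF-HFD 19, and -0.39 without GF-HFD 16, GF-HFD 19 and GF-ND 11 together. C4b took 20.6, 37.3, 52.1 and 49.8% of the counts of the 10 members in GF-HFD, against 33.6, 48.2, 31.6 and 36.1% in GF-ND retinas.

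Mouse C4b has a near-identical neighbour, C4a, on the same strand from 34809092 to 34823464, and their transcripts are 96.2% identical where they align, with 16.5% of windows of 100 bases shared. The coding segment below is shown as an example of a stretch where reads can tell the pair apart. It covers transcript positions 2741 to 2820 of C4b and 2735 to 2814 of C4a, and capitals mark the 13 bases that differ.
C4b: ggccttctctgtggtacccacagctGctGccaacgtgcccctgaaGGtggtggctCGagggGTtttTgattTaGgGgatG
C4a: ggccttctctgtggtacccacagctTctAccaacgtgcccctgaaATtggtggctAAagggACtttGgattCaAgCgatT
C4a did not follow C4b. C4a was at 3.01, 2.78, 2.61 and 1.42 CPM in GF-HFD, against 3.06, 4.83, 0.977 and 3.64 CPM in GF-ND retinas, with the lowest values in GF-ND 11 and GF-HFD 19, and its log2 fold change was -0.35 (SE 0.42). The ratio of C4b to C4a counts was 1.42, 4.09, 9.89 and 25.6 in GF-HFD and 2.90, 3.24, 9.42 and 1.81 in GF-ND retinas, so both groups held ratios on either side of 4.

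C2, which supplies the catalytic part of the enzyme that cuts C3, lies on the minus strand of chromosome 17 from 34862604 to 34898265. It was at 1.05, 1.07, 1.99 and 2.08 CPM in GF-HFD, against 0.988, 0.936, 1.001 and 0.981 CPM in GF-ND retinas. The 4 GF-ND libraries were nearly equal, GF-HFD 13 and 15 were just above them, and GF-HFD 16 and 19 were about 2 CPM. Its log2 fold change was 0.66 (SE 0.29, adjusted p = 0.649 in edgeR), with means of 1.55 ± 0.565 CPM in GF-HFD, against 0.976 ± 0.0283 CPM in GF-ND libraries (SD, n = 4 each), and the exact permutation p of 0.0286 is the smallest that 4 against 4 libraries can give. With scaling by library totals instead of TMM the groups of C2 overlapped. Without GF-HFD 16, GF-HFD 19 and GF-ND 11 its fold change was 0.14. Exons of C2 overlap Gm20547 on the same strand and Zbtb12 on the opposite strand, and its counts are uncertain where reads fell there.

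C3, the central component on which all branches meet, lies on the minus strand of chromosome 17 from 57203970 to 57228136. It was at 1.17, 1.99, 3.57 and 4.35 CPM in GF-HFD, against 1.59, 3.37, 1.72 and 1.22 CPM in GF-ND retinas. GF-HFD 19 and 16 were highest, GF-ND 10 came next, and GF-HFD 13 was lowest. The log2 fold change was 0.49 (SE 0.44, exact permutation p = 0.429), 0.87 without GF-ND 10, 0.19 without GF-HFD 19, and -0.36 without GF-HFD 16, GF-HFD 19 and GF-ND 11. The log2 CPM of C3 and C4b had a Pearson r of 0.966 over the 8 libraries, the highest of all pairs of members. C4b counts were 3.65, 5.70, 7.22 and 8.34 times those of C3 in GF-HFD, and 5.58, 4.64, 5.36 and 5.39 times in GF-ND retinas, a ratio that varied more among GF-HFD libraries.

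The stretch before the start of C3 is shown because human C3 is known to respond to inflammatory signals through C/EBP factors. It holds 150 bases on the minus strand of GRCm38.p6 at chr17:57228137-57228286 by RefSeq, and capitals mark the match to TTGCNNAA.
C3 promoter: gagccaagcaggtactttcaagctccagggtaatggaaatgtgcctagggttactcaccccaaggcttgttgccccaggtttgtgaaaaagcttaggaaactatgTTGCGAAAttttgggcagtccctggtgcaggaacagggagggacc
Of 32817 promoters, 9.57% hold this motif on either strand within 250 bases before their start. Searches for TTCNNNGAA, the motif of STAT factors held by 7.01% of promoters, and for the motif of IRF factors held by 2.97%, found no match in the promoters of the 7 members that had an entry in the RefSeq table.

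The receptors had the fewest counts of the members. C3ar1, the receptor of C3a on myeloid cells, lies on chromosome 6 from 122847138 to 122856161 and had 10, 26, 34 and 46 counts in GF-HFD, against 6, 18, 8 and 7 counts in GF-ND retinas. On the CPM scale these were 0.239, 0.617, 0.778 and 1.09 in GF-HFD, against 0.145, 0.443, 0.191 and 0.167 in GF-ND retinas. GF-HFD 15, 16 and 19 were above every GF-ND library, GF-HFD 13 was above all but GF-ND 10, and the groups overlapped there. C3ar1 had the largest fitted difference of the members, a log2 fold change of 1.52 (SE 0.54, adjusted p = 0.649 in edgeR, exact permutation p = 0.0571). Leaving out GF-ND 10 gave 1.99, leaving out GF-HFD 19 gave 1.20, and leaving out GF-HFD 16, GF-HFD 19 and GF-ND 11 gave 0.78.

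C5ar1, the receptor of C5a, lies on chromosome 7 from 16246743 to 16259540 and had 2, 4, 4 and 14 counts in GF-HFD, against 0, 14, 2 and 0 counts in GF-ND retinas. A single library of each diet held most of them, and all 8 values were even. The log2 fold change was 0.52 with an SE of 1.20, -0.31 without GF-HFD 19, -0.63 without GF-HFD 16, GF-HFD 19 and GF-ND 11, and 2.93 without GF-ND 10, so its size and direction rested on GF-HFD 19 and GF-ND 10.

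**Figure D3:**
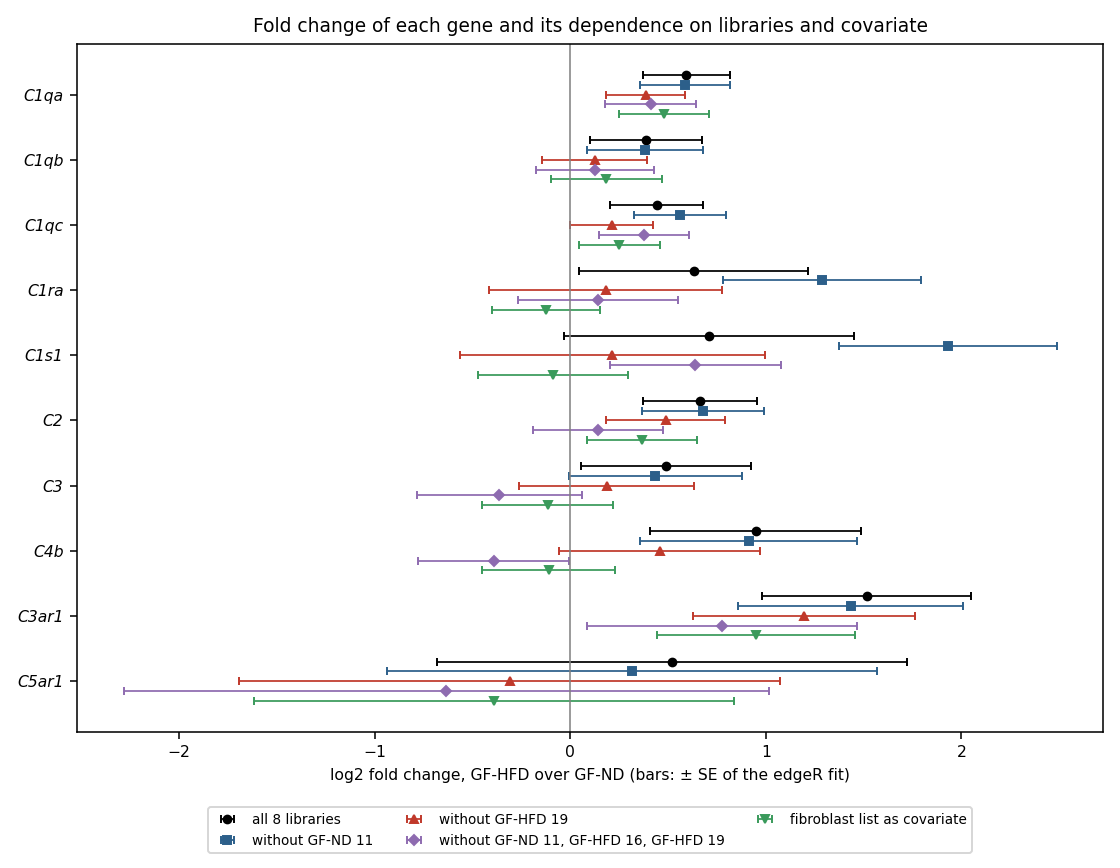
Fitted log2 fold change (above 0 where GF-HFD is higher) of each member, with bars for its SE, in all 8 libraries, without GF-ND 11, without GF-HFD 19, without these and GF-HFD 16, and with the fibroblast mean as a covariate. Values of all 8 libraries lie between 0.39 for C1qb and 1.52 for C3ar1, and C3 and C4b lie below 0 without the 3 libraries and with the covariate.

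Among the 10 genes the pairs that moved most alike over the 8 libraries were C3 with C4b, C1ra with C1s1 (0.923) and C1qa with C1qb (0.885), followed by C3 with C3ar1 (0.857). The least alike were C1qb and C1s1, with an r of 0.387. Their summed level was 20.7, 30.5, 49.6 and 72.8 CPM in GF-HFD, against 26.5, 32.5, 29.1 and 18.2 CPM in GF-ND retinas. GF-HFD 16 and 19 stood above all others, and GF-HFD 13 was below 3 of the 4 GF-ND libraries.

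Several of the marker lists of cell types moved with the members. Microglia, resident macrophages of the retina, were followed with 18 genes, of which 13 had a fitted level higher in GF-HFD (median log2 fold change 0.24). At an unadjusted p under 0.05 in edgeR 2 were higher, where 2.85% of all genes were. The mean log2 CPM of this list was 0.96, 1.26, 1.30 and 1.77 in GF-HFD, against 1.25, 1.10, 1.58 and 0.61 in GF-ND retinas, highest in GF-HFD 19 as the C1q chains were.

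Olfml3, an abundant gene of this list that encodes a secreted protein, was at 29.7 CPM in GF-HFD 19, at 64.5 CPM in GF-ND 11 and at 6.72 to 9.72 CPM elsewhere. Sall1, a transcription factor of the same list singled out after its values were seen, was likewise highest in these libraries, at 5.34 CPM in GF-HFD 19, against 22.4 CPM in GF-ND 11, and at 0.670 to 2.56 CPM elsewhere. Both genes are part of the list mean, which was 1.58 in GF-ND 11, and no list mean without them is given here. The differences and the covariate fit that follow therefore depend in part on these genes. The mean log2 CPM of the C1q chains exceeded that of the microglia list by 1.11, 0.93, 0.77 and 1.10 in GF-HFD, against 0.90, 0.70, 0.37 and 0.86 in GF-ND retinas, and the groups overlapped. With the list mean as a covariate the log2 fold change was 0.47 for C1qa, 0.17 for C1qb and 0.27 for C1qc. C1qa kept an unadjusted p under 0.05 in that comparison, as 1 of 10 members against a background of 3.35%.

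Fibroblast genes differed between libraries far more. Of their 12 genes, 8 had a fitted level higher in GF-HFD and 4 lower (median log2 fold change 1.02). At an unadjusted p under 0.05 in edgeR 3 were higher, where 2.85% of all genes were, and none was lower. Groups were apart for 1, higher in GF-HFD, where 2.29% of all genes were. The 3, named after their values were seen, were Col3a1 (log2 fold change 2.90, SE 0.77), whose groups did not overlap, Dcn (3.19, SE 1.13) and Lum (4.94, SE 1.52), genes of the extracellular matrix. The list summed to 18.7, 70.2, 214.3 and 342.4 CPM in GF-HFD, against 23.7, 85.1, 308.9 and 14.5 CPM in GF-ND retinas. Its high libraries, GF-HFD 19, GF-ND 11 and GF-HFD 16, were those in which C1ra and C1s1 were high. Ogn, a proteoglycan of connective tissue, was at 0.287, 7.31, 21.4 and 50.5 CPM in GF-HFD, against 0.530, 7.49, 108.5 and 0.478 CPM in GF-ND retinas. Fbln1, an extracellular matrix protein, was at 1.003, 39.8, 111.2 and 144.3 CPM in GF-HFD, against 1.76, 46.4, 31.8 and 0.861 CPM in GF-ND retinas, with its high values in GF-HFD 16 and 19 as for C4b and C3.

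With the fibroblast mean as a covariate the log2 fold changes were -0.13 for C1ra, -0.09 for C1s1, -0.12 for C3 and -0.11 for C4b, and 0.48 for C1qa, 0.36 for C2 and 0.95 for C3ar1. None of the 10 members then had an unadjusted p under 0.05, against a background of 2.5%. Genes of the ciliary body and iris averaged 2.98, 4.38, 4.99 and 5.17 on the log2 CPM scale in GF-HFD, against 3.23, 4.48, 4.50 and 3.02 in GF-ND retinas, and GF-HFD 15, 16 and 19 and GF-ND 10, the 4 libraries with the most C4b, were among its 5 highest. The part of these tissues in the members' values was not tested.

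Perivascular macrophages, another possible source of C1q, were followed with 10 genes, of which 9 passed the filter. The mean log2 CPM of this list was -2.56, -0.83, -0.38 and 0.35 in GF-HFD, against -1.67, -1.03, -0.77 and -2.19 in GF-ND retinas, highest in GF-HFD 19 and 16. Lyve1 was at 15.8, 12.6, 15.5 and 16.2 CPM in GF-HFD, against 12.9, 9.997, 13.7 and 13.3 CPM in GF-ND retinas, and Ms4a7 at 0.501, 0.879, 1.51 and 1.28 CPM, against 0.868, 0.911, 0.762 and 0.981 CPM. Neutrophil genes were nearly absent, with 4 of 8 passing the filter and sums of 0.213 to 0.573 CPM in GF-HFD, against 0.394 to 0.675 CPM in GF-ND retinas. Mueller glia had a list mean of 7.97 to 8.46 in GF-HFD, against 7.70 to 8.63 in GF-ND retinas on the log2 CPM scale.

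**Figure D4:**
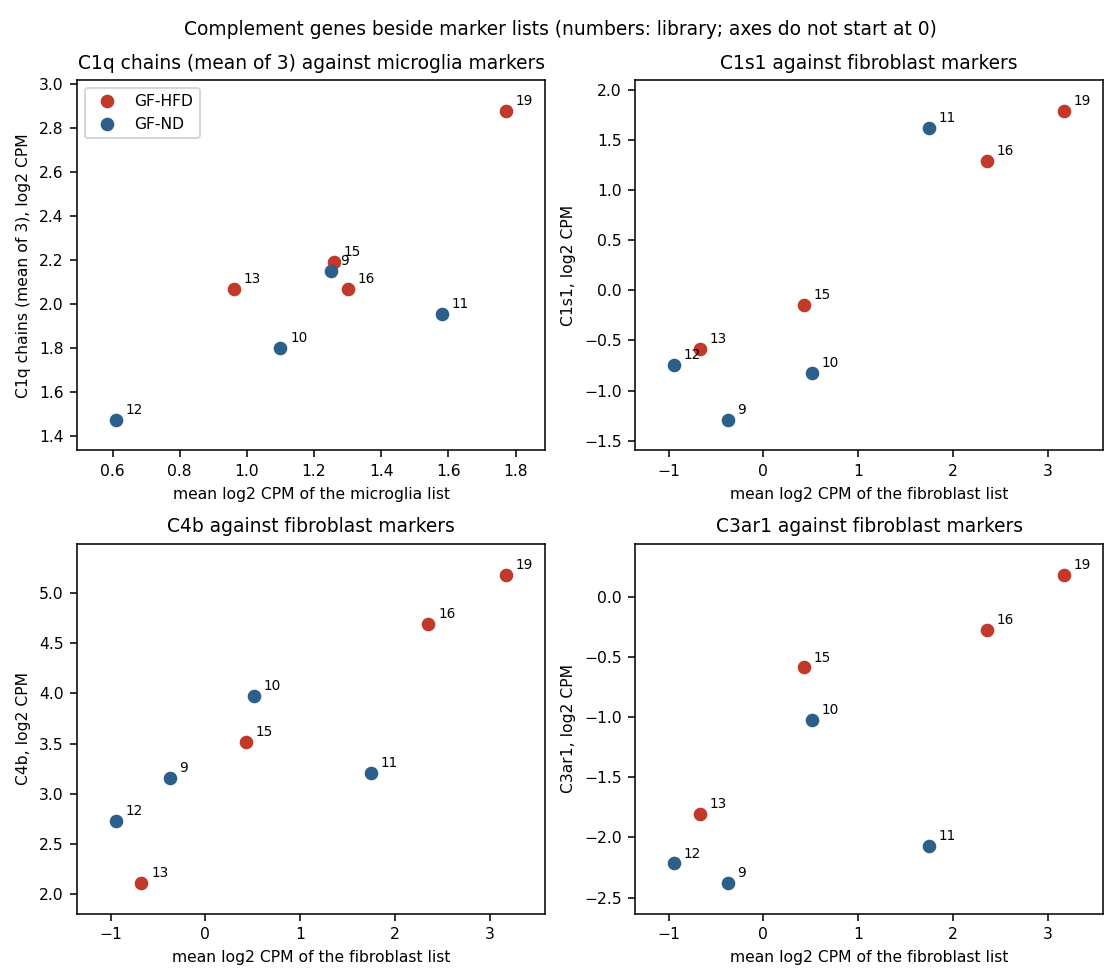
Log2 CPM of the C1q chains (mean of 3) against the mean log2 CPM of the microglia list, and of C1s1, C4b and C3ar1 against that of the fibroblast list, with 1 point per library, labelled by its number and coloured by diet. GF-HFD 19 is highest on both axes of every panel, while GF-ND 11 lies with GF-HFD 16 and 19 for C1s1 and below GF-HFD 15 and GF-ND 10 for C4b and C3ar1.

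Other genes of complement did not share the members' direction as a group. Of 43 further genes, 35 passed the filter, 14 with a fitted level higher and 21 lower in GF-HFD, and the median log2 fold change was -0.10. Over all libraries Hc, the gene of C5, had 8 counts, Fcnb 4, Cfd 3 and Vsig4 2, and Mbl1, Mbl2, C6 and C9 had 0. None was higher at an unadjusted p under 0.05 and 5 were lower, where 2.85% and 4.53% of all genes were, and no adjusted p was under 0.05 in edgeR.

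Of the 5 that were lower, 4 were on the list of regulators. Cd46, a membrane cofactor for cutting C3b and C4b, averaged 3.78 ± 0.193 CPM in GF-HFD, against 7.38 ± 1.48 CPM in GF-ND libraries (SD, n = 4 each). Its log2 fold change was -0.97 (SE 0.17), and it overlaps microRNA and noncoding genes such as A330023F24Rik. Csmd1, Csmd2 and Csmd3, large membrane proteins of neurons with complement control domains, had log2 fold changes of -0.33, -0.30 and -0.24 (SE 0.11 each). The groups did not overlap for Cd46, Csmd1 and Csmd2, where 2.54% of all genes were lower without overlap. Cfp, the gene of properdin, which steadies the alternative enzyme that cuts C3, had a log2 fold change of -0.99 (SE 0.24), with GF-ND 11 at 7.65 CPM, against 15.0 to 19.6 CPM in the other GF-ND retinas.

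Cfb, which takes the place of C2 in the alternative pathway, was at 0.239, 0.261, 0.275 and 0.449 CPM in GF-HFD, against 0.193, 0.197, 0.238 and 0.167 CPM in GF-ND retinas, from 7 to 19 counts per library. Its groups did not overlap, by 0.239 against 0.238 CPM, and the log2 fold change was 0.61 (SE 0.41, exact permutation p = 0.0286). Exons of Cfb overlap Gm20547 on the same strand, as those of C2 do, and its counts are uncertain where reads fell there. Of the lectin pathway, Masp1 and Masp2, proteases that do the work of C1r and C1s there, had log2 fold changes of 0.06 (SE 0.54) and -0.67 (SE 0.36). Of the terminal pathway, C8g and C8b had -0.33 (SE 0.27) and -0.30 (SE 0.70).

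The regulators clusterin (Clu) and vitronectin (Vtn), which block assembly of the terminal pore, were far more abundant than any member in CPM, at 588.2 ± 239.3 and 797.9 ± 87.4 CPM in GF-HFD, against 639.4 ± 550.2 and 636.3 ± 168.9 CPM in GF-ND retinas. Their log2 fold changes were -0.12 (SE 0.49) and 0.33 (SE 0.19). Among other receptors and binding proteins, C1qbp had 0.23 (SE 0.15) and the integrin chain Itgb2, a part of complement receptor 3, 0.34 (SE 0.34). C1s2 had -0.09 (SE 1.02).

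Genes outside complement whose pattern was most like a member's were sought among 11969 genes with a mean of at least 5 CPM, by Pearson r of log2 CPM over the 8 libraries. For the mean of the C1q chains these were Tmem14c (r of 0.969), Tmem115 (0.948), Psmb10 (0.94), Tmem185b (0.932) and Zfp111 (0.931). C1qa, C1qb and C1qc themselves averaged 4.65, 4.64 and 3.75 CPM, so genes as scarce as these chains were left out of the search. For C4b they were Fbn1 (0.967), the gene of the matrix protein fibrillin, Fhdc1 (0.958), Matn2 (0.953), Pop4 (0.95) and Col9a2 (0.947). For C3 they were Col9a2 (0.967), Slc6a12 (0.965), Fbn1 (0.956), Lrp5 (0.949) and Tprkb (0.947), so that Fbn1 and Col9a2 stood in both lists, as C3 and C4b themselves moved together. With 8 libraries and so many genes, high values of r arise for many genes, and they are given as a description.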

How the data were processed

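Per the labels, RNA of whole retinas was sequenced in 100-bp read pairs. The submitters' processing notes and the paper name STAR 2.4.2, GRCm38 (mm10) and featureCounts of Subread 1.4.6-p1. The authors deposited raw counts per gene symbol, 1 table for each library, neither scaled nor filtered. The strand setting is not given in the sources used here. Positions, exon lengths and overlaps came from GENCODE vM21, where 53528 symbols were found, while the paper names a later release.

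Groups came from the labels. GF-HFD was compared with GF-ND in edgeR 4.0.16 (R 4.3.3) with TMM scaling, a quasi-likelihood test, at least 10 counts over the 8 libraries and Benjamini-Hochberg adjustment over 26900 genes. Log2 CPM used a prior count of 2. Single genes were tested by a two-sided exact permutation test over libraries. The steps were tested on simulated data.

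The members, gene lists and tests were chosen with earlier results of these data known. Named were all members, other complement genes with an unadjusted p under 0.05 and up to 2 genes per list with the highest mean CPM, and the 5 genes most like a member's pattern. A gene that this rule names is not reported here. Alternatives were RLE factors, library totals, upper-quartile factors, no filter, filterByExpr, 10 CPM in 4 libraries, DESeq2 1.42.0, limma-voom (limma 3.58.1), robust dispersion, 1 surrogate variable (sva 3.50.0), the microglia or fibroblast mean as covariate, each library left out, and GF-HFD 16, GF-HFD 19 and GF-ND 11 left out together.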

Additional observations from a re-analysis of the deposited data

Results flagged for a closer look

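A library far from the other 3 of its group, by a gap that Dixon's rule sets at 95%, was found in 16 of 96 sets of 4 values. For normally distributed values the rule flags about 1 in 20 sets. CPM values need not be normally distributed, so the count is not read against chance. The sets share libraries and are not independent.

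Among the members, C1qa was at 7.85 CPM in GF-HFD 19, against 4.67 to 5.09 CPM in the other GF-HFD retinas, and C1s1 was at 3.03 CPM in GF-ND 11, against 0.362 to 0.550 CPM in the other GF-ND retinas. C3ar1 was at 0.443 CPM in GF-ND 10, against 0.145 to 0.191 CPM in the other GF-ND retinas. C5ar1 was at 0.331 CPM in GF-HFD 19 (other GF-HFD retinas up to 0.095 CPM) and at 0.345 CPM in GF-ND 10 (other GF-ND retinas up to 0.0477 CPM), each from 14 counts.

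Among other complement genes, Cfb was at 0.449 CPM and Csmd1 at 12.8 CPM in GF-HFD 19, against 0.239 to 0.275 and 14.8 to 15.0 CPM in the other GF-HFD retinas. C8g was at 1.66 CPM in GF-HFD 15, against 2.29 to 2.41 CPM in the other GF-HFD retinas. Masp1 was at 0.620 CPM and Clu at 1458 CPM in GF-ND 11, against 0.144 to 0.217 and 268.4 to 429.4 CPM in the other GF-ND retinas, and Csmd2 was at 34.6 CPM in GF-ND 10, against 27.1 to 27.3 CPM.

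Of the marker genes, Olfml3 was at 29.7 CPM in GF-HFD 19 and at 64.5 CPM in GF-ND 11, and Ogn at 108.5 CPM in GF-ND 11. The same library had the highest pigment epithelium mean, 5.82 on the log2 CPM scale (other GF-ND retinas 1.64 to 2.14), and the lowest rod mean, 10.66 (other GF-ND retinas 11.18 to 11.28). GF-HFD 16 and 19 had pigment epithelium means near it, at 5.56 and 5.10.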

How the results depend on the processing

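No member passed an adjusted p of 0.05 under any alternative run, and the adjusted p of single members reached down to 0.0879, for C1s1 without GF-ND 11. Of 3 members higher at an unadjusted p under 0.05, 0 were left with the filter of 10 CPM in 4 libraries, which tested only C4b, 0 with the fibroblast covariate, 0 without GF-HFD 16, GF-HFD 19 and GF-ND 11, and 1 with the microglia covariate. The shares of all genes that were higher at that p were 2.09%, 2.5%, 7.28% and 3.35%, in this order. Leaving out single libraries gave 0 to 5 such members, against backgrounds of 1.63% to 12.1%. The members with groups apart were 1, against 0 with library totals, 4 without the 3 libraries, and 1 to 3 with single libraries left out. Groups of fewer libraries separate more easily, and the share of all genes with groups apart was not computed for these alternatives. These counts are therefore not read as a stronger difference. Other complement genes that were higher numbered 0, against 1 with no filter, limma-voom, robust dispersion, either covariate or without the 3 libraries (backgrounds of 1.83% to 7.28%). They numbered 3 with a surrogate variable (5.38%), and 0 to 4 with single libraries left out (1.63% to 12.1%). Those that were lower numbered 5, against 3 with 10 CPM in 4 libraries or without the 3 libraries, and 4 to 7 with single libraries left out. Of all genes, 1219 of 26900 were lower in the main fit, 680 of 10291 with 10 CPM in 4 libraries and 2080 of 25102 without the 3 libraries. With single libraries left out, 782 of 26348 to 2890 of 26338 genes were lower. The direction turned with the fibroblast covariate for C1ra (-0.13), C1s1 (-0.0902), C3 (-0.12), C4b (-0.11) and C5ar1 (-0.39), without the 3 libraries for C3 (-0.36), C4b (-0.39) and C5ar1 (-0.63), and for C5ar1 with the microglia covariate (-0.23) and without GF-HFD 19 (-0.31), where single libraries left out spanned -0.31 to 2.93. The cause was not tested. C1qa, C1qb, C1qc, C2 and C3ar1 kept a fitted level above GF-ND in every alternative that tested them. No paired analysis was possible because, by the paper, each retina came from a different mouse on a single diet, and the labels give no pairs. C3ar1 had 6 to 46 and C5ar1 0 to 14 counts per library, so their levels carry the largest counting error of the members.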
